A study of Mus musculus with 10 samples.

Results

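Matrix metalloproteinases (MMPs), the ADAMTS proteases and the tissue inhibitors of metalloproteinases (TIMPs) were measured in epididymal white adipose tissue (eWAT), the fat pad beside the epididymis. Members were all non-control probes of the array whose gene name starts with *Mmp*, *Timp* or *Adamts* and a number. This gave 66 probes on 84 spots for 46 genes (23 *Mmp*, 19 *Adamts* and 4 *Timp*), of 55681 probes with 34797 gene names in all. The rule reads gene names alone.

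RNA came from 10 mice of 1 group, numbered as in the labels. They were wildtype males, labelled C57BL/6J in the sample fields and C57BL/6JOlaHsd in the protocol, aged 9 weeks at the start. After 3 weeks on a low fat diet they had a high fat diet for 12 weeks at 29°C. They then had daily injections for 5 days of 100 mg/kg desferrioxamine (DFO), an iron chelator, and were killed on day 6 after 2 h of food removal. Each mouse was 1 Cy5-labelled sample, set against a Cy3-labelled pool of RNA from all mice of the wider study, with its controls and with part of the RNA of these same mice. The pool serves as a reference only, no dyes were swapped, and no control mice were analysed here. The values therefore describe how DFO-injected mice differed from each other, not what DFO did.

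MMPs are zinc enzymes that cut collagens, elastin and other proteins of the extracellular matrix, and most are made as inactive proenzymes. ADAMTS proteases are secreted relatives that cut proteoglycans such as versican and aggrecan or trim procollagen. TIMPs bind the active site of these enzymes and block them. In adipose tissue both proteases and inhibitors are known to take part in the remodelling that goes with growth of the fat pad, and macrophages and stromal cells are among their sources.

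Across all 27718 probes entered, the first principal component of the log2 ratio to the pool held 75.1% of the variance and set mice 4, 5, 6 and 7 apart from the other 6. The slides held mice 1 and 2, mice 3 and 4, mice 5 and 6, mice 7 and 8, and mice 9 and 10. Among 12 adipocyte genes, 11 were expressed, and their mean log2 ratio lay between -2.25 and -1.29 in mice 4 to 7 and between -0.15 and 0.67 in the others. The mean of 11 expressed macrophage genes of 12 lay between 0.78 and 1.06 in mice 4 to 7 and between -1.27 and -0.11 in the others. The means of 7 expressed mast cell genes of 8 (0.09 to 1.53) and of 6 fibrillar collagen genes of 7 (0.00 to 0.24) were also highest in mice 4 to 7, and those of 10 endothelial genes of 10 (-0.86 to -0.57), 10 mesothelial genes of 10 (-1.47 to -1.06) and 8 lymphocyte genes of 10 (-0.52 to -0.34) were lowest there. Not every gene followed the mean of its list. For example, *Col5a3* was lowest in mice 4 to 7 (-0.70 to -0.43), and *Kit*, *Hdc*, *Kdr*, *Cd3e* and *Cd4* did not part them. The means of 9 neutrophil genes of 12 (-0.40 to 0.30) and 12 fibroblast genes of 12 (-0.23 to 0.08) over all mice did not part them. The fibroblast mean joins genes that ran both ways. In mice 4 to 7 *Lum* was highest (0.61 to 0.91), and *Dpt* (-1.08 to -0.61), *Dpp4* (-0.99 to -0.57) and *Cd34* (-0.93 to -0.57) were lowest. In a whole fat pad, fewer cells of a type and less RNA per cell cannot be told apart. The defining adipocyte genes *Adipoq*, *Plin1* and *Fabp4* were expressed, and *Retn* was not by the filter given below.

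The probes are 60 bases long. Those that carry the clearest patterns are shown because *Mmp12* and *Mmp7* differed in pattern although both genes lie in the same cluster, and because the second *Timp2* probe gave another spread than the first. Positions are those of the array's annotation (mm9), and the exon of each probe was not determined here. Capitals mark the longest stretch that the *Mmp12* and *Mmp7* probes share, 8 bases. The *Mmp12* probe lies at chr9:7352935-7352994 and the *Mmp7* probe at chr9:7697641-7697700, both on the plus strand. The *Timp2* probe lies on the minus strand between the ends chr11:118171964-118178741, a span of 6778 bases, so it crosses an intron.
Mmp12: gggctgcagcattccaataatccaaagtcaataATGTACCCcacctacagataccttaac
Mmp7: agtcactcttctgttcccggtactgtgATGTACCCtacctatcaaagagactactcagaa
Timp2, second probe: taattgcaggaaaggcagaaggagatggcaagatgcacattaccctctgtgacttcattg

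Of the 46 genes, 28 were expressed, meaning that 5 or more of the 10 arrays had a Cy5 signal well above background: 12 *Mmp*, 12 *Adamts* and all 4 *Timp* genes. By the same filter 27811 of all 55681 probes of the array were expressed, a share by probe and not by gene. On all 10 arrays 26 genes passed, and on at least 1 array 35 did. Cy5 was not well above background on any array for *Adamts3*, *Adamts13*, *Adamts17*, *Adamts19*, *Adamts20*, *Mmp1a*, *Mmp1b*, *Mmp16*, *Mmp20*, *Mmp24* and *Mmp25*. It was so on 1 to 4 arrays for *Adamts6*, *Adamts18*, *Mmp8*, *Mmp9*, *Mmp10*, *Mmp21* and *Mmp28*. *Mmp8* and *Mmp9*, the collagenase and the gelatinase known from neutrophils, are among these. *Mmp9* is printed on 10 spots of each array and still reached this level on 4 arrays only. An array signal that is not well above background does not show that a gene is silent.

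**Figure D1:**
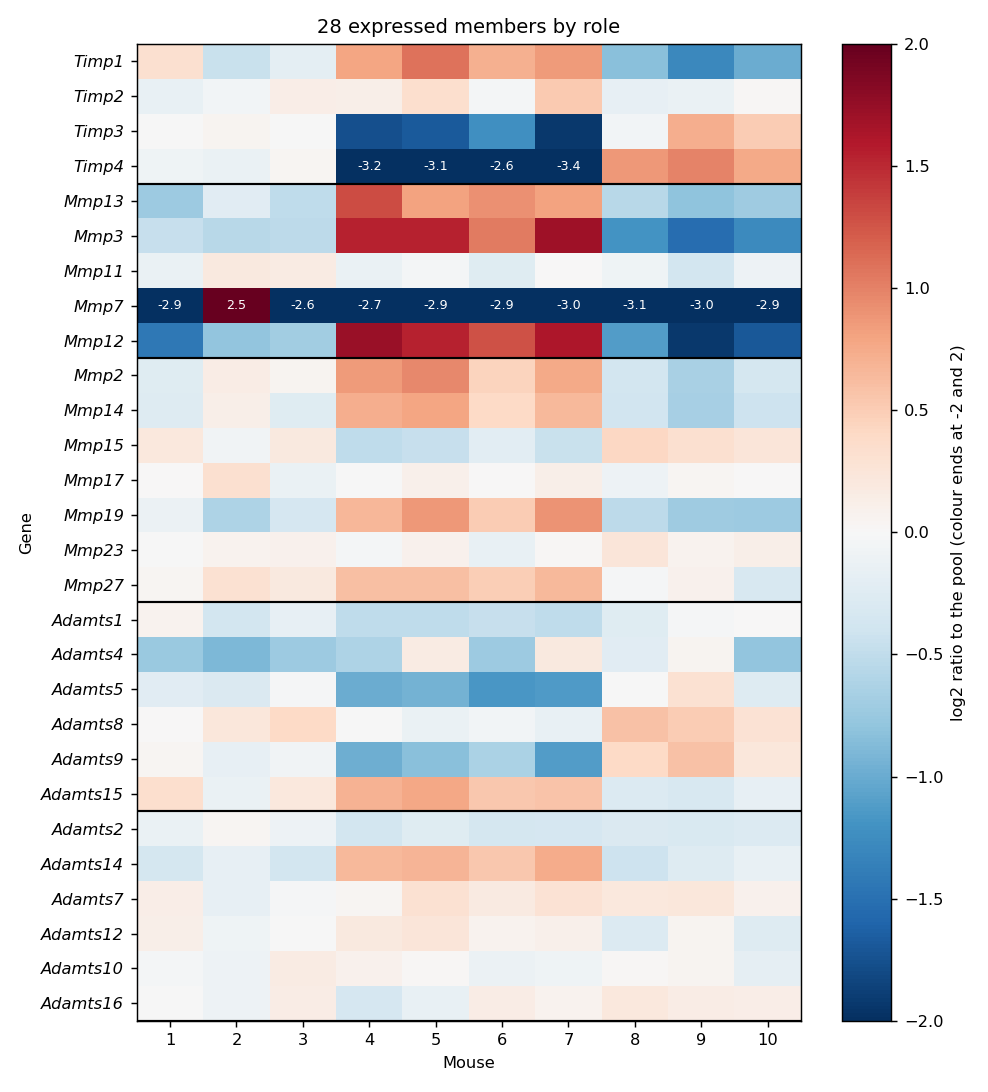
Log2 ratio to the pool of the 28 expressed members (rows, grouped from top to bottom as inhibitors, collagenase with stromelysins, matrilysin and elastase, gelatinase with membrane-bound and other MMPs, aggrecanase-type ADAMTS, and procollagen and other ADAMTS) in mice 1 to 10 (columns). Values past -2 or 2 are written in the cells. *Timp3* and *Timp4* are blue in mice 4 to 7, where *Mmp3*, *Mmp12*, *Mmp13* and *Timp1* are red, and *Mmp7* is red in mouse 2 alone.

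By the probe with the highest mean signal, the 4 inhibitors went 3 ways. *Timp4* and *Timp3* were low in mice 4 to 7, *Timp1* was high in the same mice, and *Timp2* varied least. On the second *Timp2* probe, described below, mice 4 to 7 were highest, as for *Timp1*. *Timp4*, the inhibitor known for its high expression in adipocytes, had log2 ratios of -0.09, -0.14 and 0.03 in mice 1 to 3, of -3.21, -3.09, -2.61 and -3.38 in mice 4 to 7, and of 0.86, 0.99 and 0.76 in mice 8 to 10 (mean -0.99 ± 1.85 SD, n = 10). The highest mouse was 20.6-fold above the lowest, and no value of mice 4 to 7 overlapped with the rest. Its Cy5 signal varied 35.6 times as much between mice, by SD, as the pool's Cy3 signal did between arrays (Pitman-Morgan test, adjusted p = 1.43e-08). This was the largest of the 34 ratios over member probes. The mean of the adipocyte genes was also lowest in mice 4 to 7, and the part of adipocyte content in the spread of *Timp4* was not tested.

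*Timp3*, which binds to the matrix itself and also blocks ADAMTS proteases, had log2 ratios of -0.01, 0.05 and -0.00 in mice 1 to 3, of -1.76, -1.68, -1.22 and -1.93 in mice 4 to 7, and of -0.05, 0.72 and 0.50 in mice 8 to 10 (mean -0.54 ± 1.00 SD). Mice 4 to 7 were again below all others, with a range of 6.28-fold over the 10 mice. *Timp1*, an inhibitor known to be induced by inflammatory signals, ran the other way. Its log2 ratios were 0.32, -0.45 and -0.19 in mice 1 to 3, 0.79, 1.08, 0.72 and 0.85 in mice 4 to 7, and -0.83, -1.29 and -0.99 in mice 8 to 10 (mean 0.00 ± 0.86 SD). Its highest mouse was 5.16-fold above the lowest, and mouse 1 was the nearest to mice 4 to 7. The SD ratio of Cy5 over Cy3 was 13.6 for *Timp3* (adjusted p = 7.82e-07, Pitman-Morgan test) and 6.97 for *Timp1* (adjusted p = 1.26e-06).

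*Timp2*, the inhibitor that also takes part in activating pro-MMP2 on the cell surface, differed between its probes. The brighter probe (chr11:118163146-118163205) had log2 ratios of -0.15, -0.06 and 0.14 in mice 1 to 3, of 0.12, 0.33, -0.05 and 0.53 in mice 4 to 7, and of -0.16, -0.13 and 0.02 in mice 8 to 10 (mean 0.06 ± 0.23 SD). The probe that crosses an intron had -0.39, 0.08 and -0.58, then 0.94, 0.75, 0.54 and 0.81, and then -0.32, -0.75 and -0.53 in the same mice (SD 0.65). Mice 4 to 7 stood above all others on the second probe and overlapped with them on the first. Both varied more in Cy5 than in Cy3, with SD ratios of 2.92 and 7.76 (adjusted p = 0.00491 and 3.60e-05, Pitman-Morgan test). A level for *Timp2* therefore depends on the probe. In the RefSeq gene table *Timp1*, *Timp3* and *Timp4* overlap with the synapsin genes *Syn1*, *Syn3* and *Syn2*, while *Timp2* overlaps with *Cep295nl*.

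**Figure D2:**
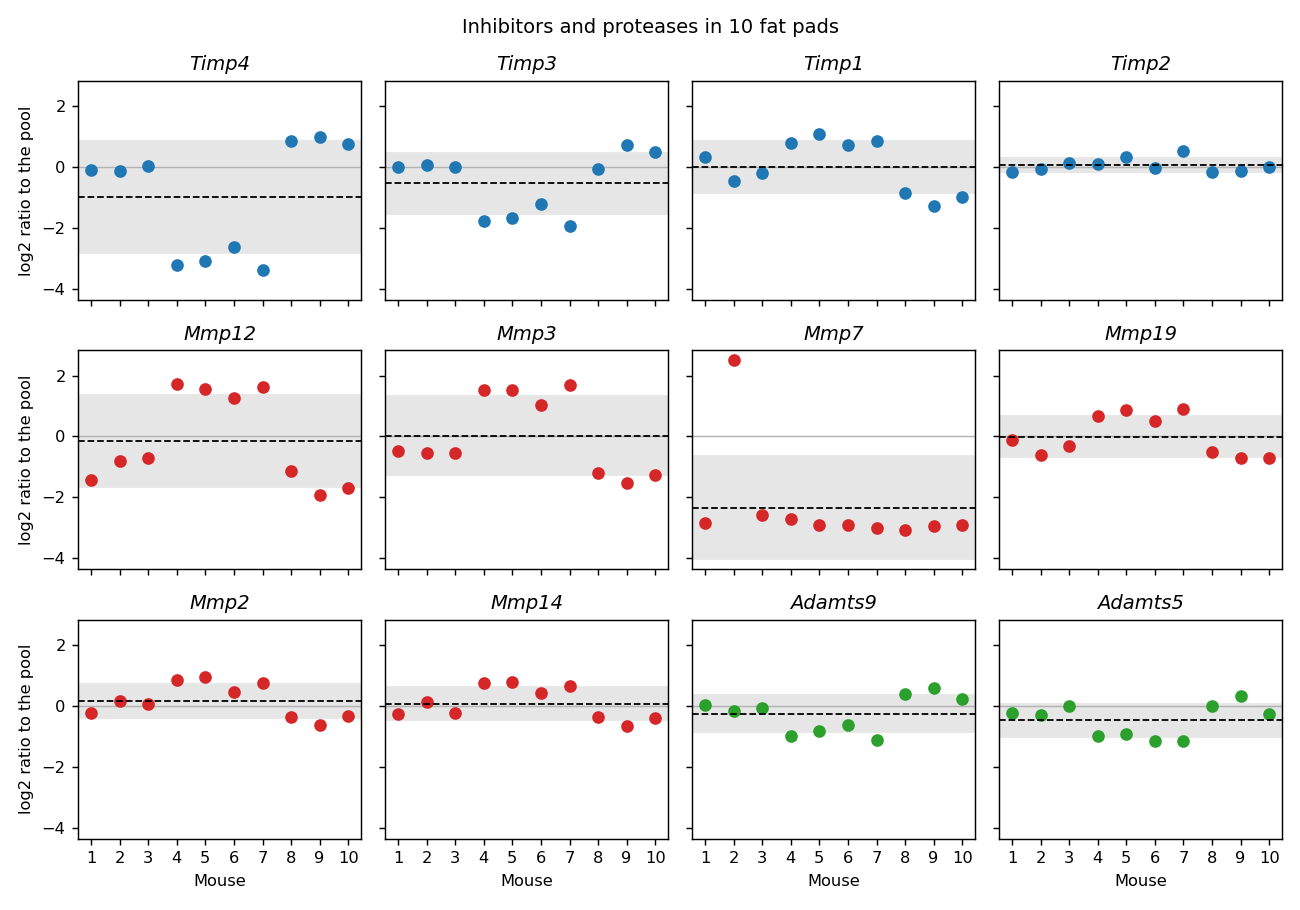
Log2 ratio to the pool (vertical axis) of 12 members in mice 1 to 10 (horizontal axis), 1 point per mouse. The dashed line is the mean and the grey band the mean ± SD over 10 mice. *Timp4* spans from -3.38 to 0.99, and the points of mice 4 to 7 lie at the lower end for *Timp3*, *Timp4*, *Adamts5* and *Adamts9* and at the upper end for *Mmp2*, *Mmp3*, *Mmp12*, *Mmp14*, *Mmp19* and *Timp1*.

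Among the secreted MMPs, *Mmp12*, *Mmp3* and *Mmp13* were high in mice 4 to 7. *Mmp12*, the elastase known from macrophages, had log2 ratios of -1.43, -0.79 and -0.69 in mice 1 to 3, of 1.72, 1.54, 1.28 and 1.61 in mice 4 to 7, and of -1.12, -1.93 and -1.70 in mice 8 to 10 (mean -0.15 ± 1.50 SD). The highest mouse was 12.5-fold above the lowest, and no values of mice 4 to 7 and the others overlapped. Its second probe had an SD of 1.25 and an r of 0.99 with the first over the 10 mice, although its Cy5 signal was not well above background in mice 1, 3, 9 and 10. The mean of the 11 expressed macrophage genes was also highest in mice 4 to 7, and its part in the level of *Mmp12* was not tested over all mice.

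*Mmp3*, or stromelysin, which cuts several matrix proteins and activates other pro-MMPs, had log2 ratios of -0.47, -0.56 and -0.53 in mice 1 to 3, of 1.53, 1.54, 1.05 and 1.70 in mice 4 to 7, and of -1.19, -1.52 and -1.28 in mice 8 to 10 (mean 0.03 ± 1.29 SD). No value of mice 4 to 7 overlapped with the rest, mice 8 to 10 were the 3 lowest, and the whole range was 9.30-fold. The collagenase *Mmp13* ranged from -0.81 to 1.31 with a median of -0.37, and mice 4 to 7 held its 4 highest values. Its Cy5 signal was not well above background in mice 1, 3 and 9, so their values are upper bounds of their level. The SD ratio of Cy5 over Cy3 was 10.5 for *Mmp12*, 14.7 for *Mmp3* and 11.1 for *Mmp13*, and all 3 passed the Pitman-Morgan test (adjusted p at most 3.09e-07).

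*Mmp7*, or matrilysin, an enzyme known mainly from epithelial cells, had another pattern. Its log2 ratio was 2.50 in mouse 2 and lay between -3.06 and -2.57 in the other 9, with a median of -2.90 over all 10 mice. Mouse 2 was thus 47.0-fold above the lowest mouse, and without it the SD fell from 1.70 to 0.149. Its Cy5 signal was well above background on all 10 arrays. Mouse 2 also had the highest log2 ratio of the keratin genes *Krt8* (1.91), *Krt18* (1.85) and *Krt19* (0.65), and the highest mean of the 5 expressed genes of 12 for epididymis and sperm (-0.52, against -1.66 to -0.96 in the others). Of that list the sperm genes *Prm1*, *Prm2* and *Tnp1* and the genes *Lcn12* and *Rnase10* were expressed, and *Tnp2*, *Defb1*, *Lcn5*, *Lcn8*, *Adam7*, *Crisp1* and *Crisp4* were not. The 3 sperm genes were highest in mouse 2, while *Lcn12* and *Rnase10* were highest in mouse 3. The 3 keratins were among 10 mesothelial markers, of which the other 7 were below 0 in mouse 2 (*Msln*, -0.96). The part of such cells in the value of *Mmp7* was not tested.

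*Mmp2*, *Mmp14* and *Mmp19* were higher in mice 4 to 7 than in the rest, over smaller ranges. *Mmp2*, the gelatinase made by stromal cells, had log2 ratios of -0.24, 0.15 and 0.05 in mice 1 to 3, of 0.85, 0.96, 0.44 and 0.76 in mice 4 to 7, and of -0.36, -0.64 and -0.35 in mice 8 to 10 (mean 0.16 ± 0.57 SD). *Mmp14*, the membrane-bound enzyme that activates pro-MMP2, had -0.26, 0.12 and -0.25, then 0.73, 0.79, 0.41 and 0.65, and then -0.38, -0.66 and -0.41 in the same order (mean 0.07 ± 0.54 SD). *Mmp19*, a secreted enzyme that cuts basement membrane proteins, had -0.12, -0.62 and -0.33, then 0.67, 0.87, 0.50 and 0.89, and then -0.53, -0.72 and -0.72 (mean -0.01 ± 0.67 SD). In all 3 genes the lowest of mice 4 to 7 was mouse 6, and it stayed above every other mouse. Their ranges were 3.03-fold, 2.72-fold and 3.06-fold.

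Of the other MMPs, *Mmp27* was highest in mice 4 to 7 (0.49 to 0.66, against a lowest value of -0.32 in mouse 10), while the membrane-bound *Mmp15* was lowest there (-0.51 to -0.21, against a highest value of 0.42 in mouse 8). *Mmp11* (SD 0.17), *Mmp17* (SD 0.13) and *Mmp23* (SD 0.10) varied little. *Mmp11* and *Mmp23* still varied more in Cy5 than in Cy3, with SDs of the pool signal of 0.0285 and 0.0474. *Mmp17* did not pass the test (adjusted p = 0.187, Pitman-Morgan test).

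The ADAMTS proteases ran in both directions. *Adamts9*, a versican-cutting enzyme, had log2 ratios of 0.04, -0.17 and -0.07 in mice 1 to 3, of -0.98, -0.84, -0.63 and -1.12 in mice 4 to 7, and of 0.40, 0.59 and 0.22 in mice 8 to 10 (mean -0.26 ± 0.60 SD). *Adamts5*, an aggrecanase, had -0.23, -0.29 and -0.02, then -0.99, -0.94, -1.17 and -1.14, and then -0.01, 0.31 and -0.26 (mean -0.47 ± 0.54 SD). *Adamts1*, a related protease that also cuts versican, had 0.07, -0.36 and -0.16, then -0.50, -0.50, -0.46 and -0.50, and then -0.24, -0.02 and 0.01 (mean -0.27 ± 0.23 SD). Mice 4 to 7 were the 4 lowest in all 3 genes, over ranges of 3.28-fold, 2.78-fold and 1.49-fold. With centring on the median of each array instead of loess, which moved the median of all expressed probes from 0.01 to 0.32, mice 4 to 7 were no longer the 4 lowest for *Adamts9* and *Adamts1*.

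*Adamts15* (0.54 to 0.77 in mice 4 to 7, -0.32 to 0.34 in the others) and *Adamts14* (0.55 to 0.75 against -0.41 to -0.15) ran the opposite way. *Adamts15* belongs to the proteoglycan-cutting group with *Adamts1*, *Adamts5* and *Adamts9*, and *Adamts14* to the procollagen N-proteinases. *Adamts2*, the main enzyme of that last group, had log2 ratios of -0.13, 0.04 and -0.10 in mice 1 to 3, of -0.37, -0.25, -0.36 and -0.34 in mice 4 to 7, and of -0.29, -0.31 and -0.28 in mice 8 to 10 (mean -0.24 ± 0.13 SD). Neither of its probes passed the test, and the values of mice 4 to 7 lay among the others. *Adamts7*, *Adamts10*, *Adamts12* and *Adamts16* had SDs between 0.10 and 0.18, and none of the first 3 passed either. *Adamts16* was not tested for variance, because its pool signal was well above background on 4 arrays only.

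*Adamts4*, the other main aggrecanase, had log2 ratios of -0.75, -0.90 and -0.73 in mice 1 to 3, of -0.62, 0.17, -0.73 and 0.20 in mice 4 to 7, and of -0.22, 0.06 and -0.79 in mice 8 to 10 (mean -0.43 ± 0.44 SD). The value of mouse 9 cannot be read as a level. On that array the spot was not well above background in either dye, with log2 signals of 6.06 (Cy5) and 6.01 (Cy3), against 9.30 to 10.60 and 10.18 to 10.45 on the other 9. The second probe gave -0.57 in mouse 9 and ranged from -0.73 to 0.49 over 9 mice (its spot for mouse 3 was left out as an outlier). Mice 5 and 7 were the 2 highest on both probes.

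Over all members, the variance of Cy5 between mice was set against that of Cy3, the same pool on each array, as the share of spread that labelling and hybridisation give. Of 34 member probes with both dyes above background on at least 5 arrays, 26 varied more in Cy5 and 0 varied less (Pitman-Morgan test, adjusted over all 25049 probes tested). The count of 0 was the same at an unadjusted p under 0.05 and in an F test, and was 1 of 65 with no filter on dim probes. These were 76.5% of the member probes, against 59.7% of all probes tested that varied more and 0.16% that varied less. They belong to 21 of the 27 genes tested and comprise 13 of 14 *Mmp* probes, 8 of 15 *Adamts* probes and 5 of 5 *Timp* probes. Among them, *Mmp7* was high in mouse 2 alone, and without that mouse the SD of its log2 ratio was 0.149. The 8 that did not pass were *Mmp17*, *Adamts4*, *Adamts7*, *Adamts10*, *Adamts12*, both probes of *Adamts2* and 1 of the 2 of *Adamts8*. The *Adamts4* probe tested had SDs of 1.26 in Cy5 and 1.36 in Cy3, with the spot of mouse 9 dim in both dyes. Its second probe, with SDs of 0.43 and 0.047, was not tested, because its spot for mouse 3 was left out. The test therefore does not show that *Adamts4* varied no more than the pool. The median SD of log2 Cy5 was 0.497 over member probes and 0.199 over all probes, while that of Cy3 was 0.082 and 0.081. The p-values compare the spread of Cy5 over these 10 mice of 1 group with that of Cy3 over the same arrays. Since no dyes were swapped, spread particular to Cy5 or to the RNA isolation of each mouse cannot be told apart from spread between mice. Without normalization between arrays, 16 member probes varied more and 0 less, against 18.7% of all probes.

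**Figure D3:**
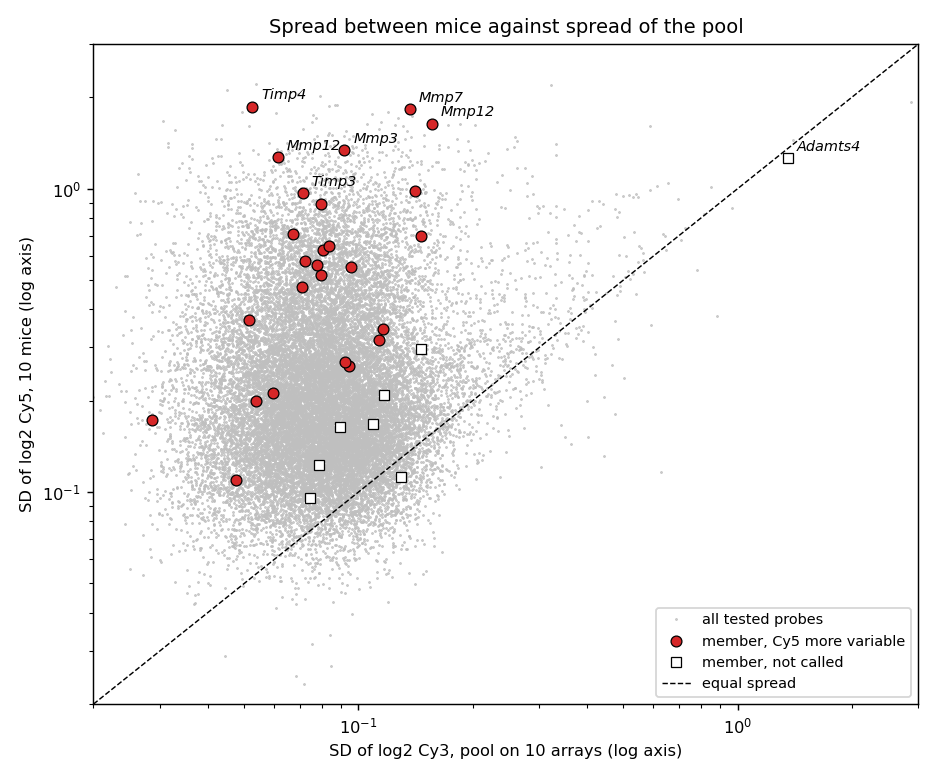
SD of log2 Cy5 over 10 mice (vertical, log axis) against the SD of log2 Cy3 of the pool over 10 arrays (horizontal, log axis) for each tested probe. Red circles are the 26 member probes that varied more in Cy5, white squares the 8 that did not pass, grey points all tested probes and the dashed line equal spread. *Timp4* has the highest Cy5 SD of the members (1.86), and *Adamts4* lies on the line with 1 of its spots dim in both dyes.

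The order of the mice gives the same picture without a threshold on size. Mice 4 to 7 held the 4 highest values in 10 of the 28 expressed member genes (*Mmp2*, *Mmp3*, *Mmp12*, *Mmp13*, *Mmp14*, *Mmp19*, *Mmp27*, *Adamts14*, *Adamts15* and *Timp1*), against 17.9% of all expressed probes. They held the 4 lowest in 7 (*Mmp15*, *Adamts1*, *Adamts5*, *Adamts8*, *Adamts9*, *Timp3* and *Timp4*), against 21.3% of all. In the remaining 11 genes they were mixed with the others. As shares of the members these are 35.7% and 25.0%, and since these mice were set apart by the component of all probes, the counts are a description and were not tested. No gene turned from one end to the other under another scaling. With median centring mice 4 to 7 were highest in 12 genes and lowest in 5 (16.5% and 6.75% of all probes), and with the deposited normalized values in 10 and 4 (22.7% and 14.6%).

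Where 2 probes of a gene were expressed, they checked each other in 9 genes. The r between them over the 10 mice, a description because mice 4 to 7 stood apart, was 0.99 for *Mmp12*, 0.96 for *Adamts9*, 0.92 for *Mmp11* and 0.89 for *Adamts5*. It was 0.68 for *Adamts4* (9 mice) and 0.64 for *Timp2*. The probes did not follow each other for *Adamts10* (0.17), *Adamts8* (0.08) and *Adamts2* (-0.16). The dimmer probes of *Adamts8* and *Adamts10* were well above background in Cy5 on 5 arrays each, whereas both *Adamts2* probes were so on all 10 and had SDs of 0.13 and 0.14. The order of mice given above for *Adamts8* rests on its brighter probe.

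**Figure D4:**
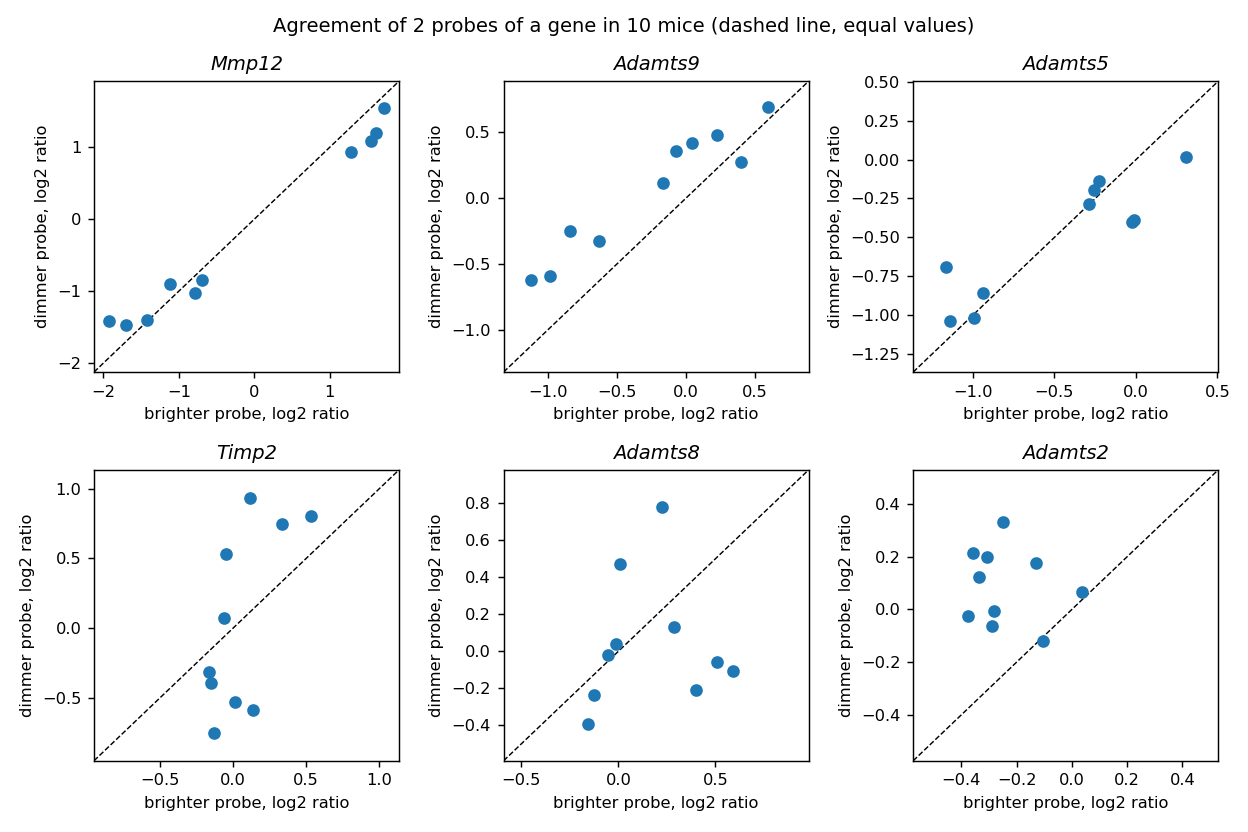
Log2 ratio to the pool of the dimmer probe (vertical) against the brighter probe (horizontal) of 6 genes, 1 point per mouse for 10 mice, with the dashed line at equal values. The points of *Mmp12*, *Adamts9* and *Adamts5* follow a line, those of *Timp2* spread more on the dimmer probe, and those of *Adamts8* and *Adamts2* form no line.

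Pairs of measures taken for their known functions (protease with inhibitor, activator with enzyme, gene with the cells known to express it) were compared within the 6 mice 1, 2, 3, 8, 9 and 10, because mice 4 to 7 formed a separate cluster. Of 16 pairs 14 could be computed, and *Mmp8* with *Mmp9* and *Mmp9* with the neutrophil genes could not, since *Mmp8* and *Mmp9* were not expressed. In 4 of the 14 a measure parted the 6 mice again into 3 and 3, by a gap of 0.610 of the range for *Mmp3*, 0.646 for *Timp4* and 0.442 for *Adamts2*. No r is given as a result for these pairs, which are *Mmp3* with *Timp1* and with *Mmp12*, *Timp4* with the adipocyte genes, and *Adamts2* with the fibrillar collagen genes, and with 3 mice on each side the relations cannot be tested. Among the 6 mice, mice 8 to 10 were the 3 lowest for *Mmp3*, *Timp1* and *Adamts2* and the 3 highest for *Timp4* and the adipocyte genes. They were also the 3 lowest for *Mmp2*, *Mmp14*, the macrophage genes and the fibrillar collagen genes. The gaps there were 0.139, 0.158, 0.113 and 0.0005 of the range, under the 0.4 that marks a cluster. The r of pairs with these measures still includes this difference between mice 1 to 3 and mice 8 to 10.

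All p-values here are two-sided, from all 720 permutations of 6 mice, and adjusted over the 14 pairs. *Mmp14* and *Mmp2* rose and fell together (r = 0.93, p = 0.00556, adjusted p = 0.0389, or 0.0278 over the 10 pairs without such a gap; rho = 0.94, p = 0.0167, adjusted p = 0.0778). Without the 2 mice farthest from the median of *Mmp14*, r was 0.81 over 4 mice. Mice 8 to 10 were the 3 lowest of the 6 for both genes, and the part of this difference in the r of 0.93 was not tested. No setting turned the sign of this pair, but its adjusted p was above 0.05 without background subtraction (0.0506), with the scanner's own log ratio (0.0583) and with the mean over all expressed probes (0.0544). It was 0.0542 with the filter on all 10 arrays, where r was unchanged and the adjustment ran over 12 pairs. With 1 mouse left out r lay between 0.87 and 0.998. A single pair cannot pass then, since the smallest p that permutations of 5 mice allow is 0.00833, or 0.117 when adjusted over 14 pairs.

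*Mmp12* and the macrophage genes missed the threshold (r = 0.92, exact p = 0.0181, adjusted p = 0.0506; rho = 0.89, adjusted p = 0.0933), with r = 0.89 without the 2 farthest mice. *Adamts4* and *Adamts5* passed it (r = 0.91, exact p = 0.00139, adjusted p = 0.0194; rho = 1.00, exact p = 0.00278, adjusted p = 0.0194), with the dim spot of mouse 9 described above among the 6 values of *Adamts4*. Without mouse 9, r was 0.74 over 5 mice, with the mean over both probes 0.59 (adjusted p = 0.292, exact permutation), and with the deposited normalized values -0.12 (adjusted p = 0.874, exact permutation).

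The other 7 pairs did not pass (adjusted p between 0.343 and 0.769 for r, exact permutation). For *Timp2* the r depended on the probe. With its brighter probe r was 0.53 with *Mmp2* and 0.22 with *Mmp14*, and with the mean over both probes it was 0.88 and 0.97 (adjusted p = 0.0544 for each, exact permutation). For *Timp3* with the endothelial genes r was 0.28, or 0.86 with median centring, and for *Adamts1* with *Adamts4* it was 0.13, or 0.71 with median centring. For *Mmp12* with *Timp1* r was 0.52, or 0.96 without mouse 1. It was 0.63 for *Mmp2* with the fibrillar collagen genes and 0.47 for *Mmp19* with the macrophage genes. With 6 mice, such values do not show that the measures are unrelated.

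**Figure D5:**
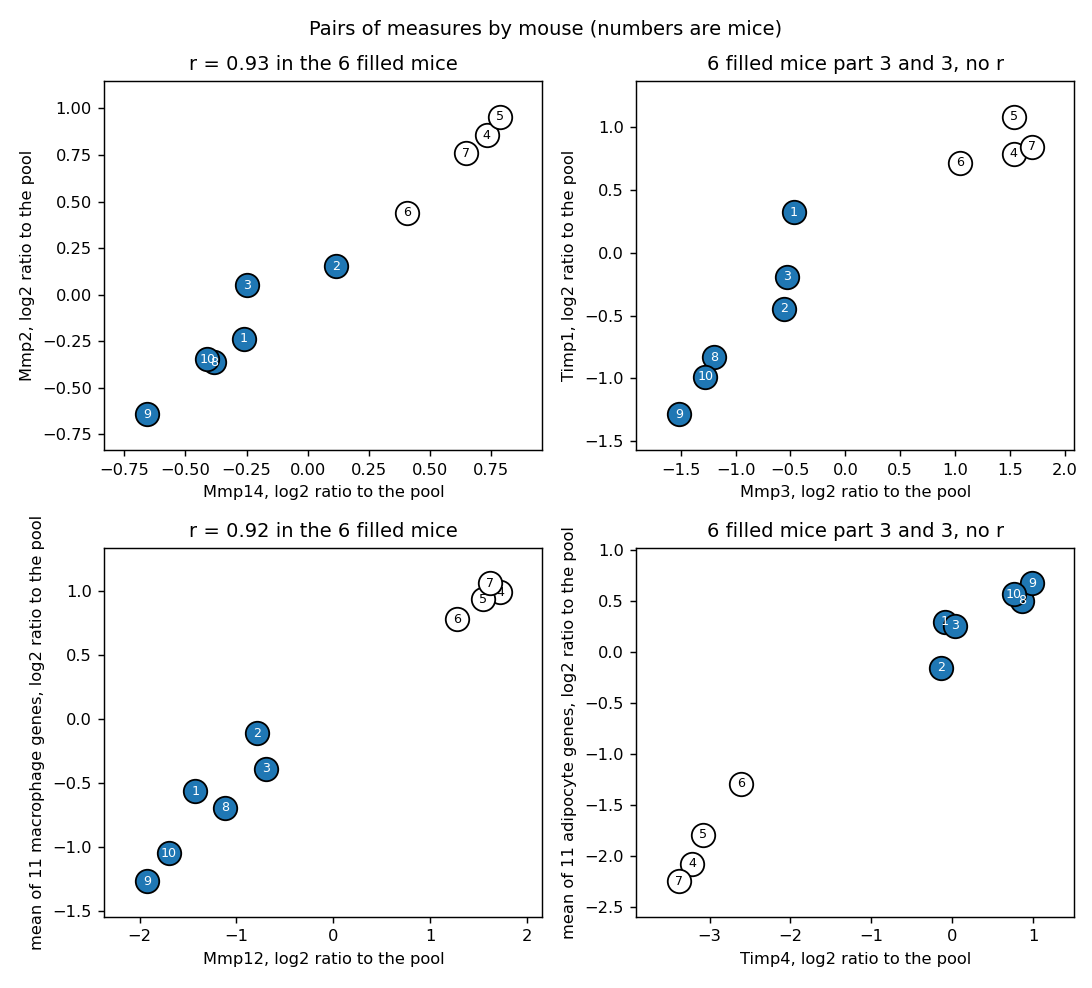
Log2 ratio to the pool for 4 pairs, with each mouse drawn by its number. Filled circles are the 6 mice used for the pairs (r = 0.93 for *Mmp14* with *Mmp2* and 0.92 for *Mmp12* with the macrophage mean, and no r where these mice part into 3 and 3), and open circles are mice 4 to 7, which lie apart at the high end, or for *Timp4* with the adipocyte mean at the low end.

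In the genome, 10 of the MMP genes lie side by side on chromosome 9, in the order *Mmp13*, *Mmp12*, *Mmp1b*, *Mmp3*, *Mmp1a*, *Mmp10*, *Mmp8*, *Mmp27*, *Mmp20* and *Mmp7*, with no other protein-coding gene of the RefSeq table between them. Of these 10, *Mmp13*, *Mmp12*, *Mmp3*, *Mmp27* and *Mmp7* were expressed in the fat pads. The first 4 were highest in mice 4 to 7, and *Mmp7*, at the far end, was high in mouse 2 alone. RefSeq promoters (GRCm38.p6) were at hand for 32 of the 46 member genes, with 35 start sites. In the 250 bases before the start, the letters TGAGTCA, read on either strand, the binding motif of the AP-1 factors, were found at 7 of these 35 starts, against 4.46% of all 32851. All 7 belong to the cluster on chromosome 9 (*Mmp1a*, *Mmp1b*, *Mmp3*, *Mmp7*, *Mmp10*, *Mmp12* and *Mmp13*). A match is a description of the sequence, and AP-1 binding was not measured.

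The last 100 bases before the start are shown for the 4 expressed genes with the motif, which is in capitals. All are on the plus strand of chromosome 9 in GRCm38.p6, at chr9:7272414-7272513 for *Mmp13*, at chr9:7347274-7347373 for *Mmp12*, at chr9:7445722-7445821 for *Mmp3* and at chr9:7691990-7692089 for *Mmp7*. For *Mmp12* and *Mmp7* the table holds more than 1 start, and the motif stands before the start shown only.
Mmp13: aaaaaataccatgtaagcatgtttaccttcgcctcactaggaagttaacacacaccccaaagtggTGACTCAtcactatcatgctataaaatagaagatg
Mmp12: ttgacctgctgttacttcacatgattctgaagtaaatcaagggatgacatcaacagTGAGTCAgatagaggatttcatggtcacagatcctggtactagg
Mmp3: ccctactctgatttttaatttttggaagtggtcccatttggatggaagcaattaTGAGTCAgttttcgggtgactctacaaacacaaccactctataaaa
Mmp7: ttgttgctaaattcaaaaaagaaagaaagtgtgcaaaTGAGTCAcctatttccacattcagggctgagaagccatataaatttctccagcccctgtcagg
The motif starts 35 bases before the start of *Mmp13*, 44 before that of *Mmp12*, 46 before that of *Mmp3* and 63 before that of *Mmp7*. The letters ACGTG, read on either strand, a form of the core of the site that hypoxia-inducible factors bind, were found at 7 of the 35 member starts, against 16.6% of all. The member share is thus near that of all starts. The expressed members among the 7 were *Mmp7*, *Mmp14* and *Timp1*. Of these the last 2 were highest in mice 4 to 7 and *Mmp7* in mouse 2. A relation of the ACGTG matches to the order of mice was not tested. The ACGTG match of *Mmp7* stands before another of its starts than the one shown above. The other form of that core, GCGTG, was found at 12 of the 35, against 28.2% of all. Its expressed members were *Adamts1*, *Adamts9*, *Adamts12*, *Adamts14*, *Mmp7*, *Timp1*, *Timp2* and *Timp3*. The GCGTG match of *Mmp7* stands before the same start as its ACGTG match.

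Genes that activate, inhibit or are cut by these proteases were taken from a list of 35, of which 30 were expressed. Of these 25 varied more in Cy5 than in Cy3 and 0 less (Pitman-Morgan test), against the 59.7% of all probes given above, and 12 did so without normalization between arrays (18.7% of all). The median SD of their log2 ratio was 0.303, against 0.426 over the 28 member genes and 0.177 over all expressed probes. Mice 4 to 7 were the 4 highest in 14 of the 30 and the 4 lowest in 2, against 17.9% and 21.3% of all expressed probes. Among those named after their values were seen, highest there were the plasminogen activator *Plau* (0.91 to 1.06) and its receptor *Plaur* (0.59 to 0.91), which can start the activation of pro-MMPs, the metalloprotease *Adam8* (1.05 to 1.26), and the collagen-cutting cathepsin *Ctsk* (1.13 to 1.28). Lowest there was *Thbs1* (-2.20 to -1.68), a matrix protein that binds proteases. The membrane-bound MMP inhibitor *Reck* (SD 0.14) and the proprotein convertase *Furin* (SD 0.13), which activates *Mmp14*, varied little, though both passed the test. The plasmin precursor *Plg*, the inhibitor *A2m* and the proteoglycan genes *Acan* and *Bcan* were not expressed, nor was *Hapln1*.

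No effect of the slide was detected in the members. In limma's moderated F test, 0 of 36 member probes passed (lowest adjusted p = 0.697), with 1 at an unadjusted p under 0.05, and 0 of all 27718 probes did (0%), with 1136 at an unadjusted p under 0.05. With median centring 6 member probes of 36 and 2718 probes of all had an unadjusted p under 0.05, and with the deposited values 4 of 37, with 0 past the threshold. With 2 arrays on each of 5 slides, small slide effects could not be seen.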

How the data were processed

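Total RNA of eWAT from 10 DFO-injected mice was measured on 10 two-colour arrays (Cy5, a mouse; Cy3, the common pool). The authors deposited scanner output from Agilent Feature Extraction 10.7.3.1 (version from the submitters' processing notes), whose intensity values are spot means and local backgrounds without normalization, and whose log10 ratios the scanner software had corrected and normalized. A second deposited file holds the authors' normalized values of 30733 spots, on a log2 scale found from the values, and served as an alternative. How it was normalized is not given in the sources used here.

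Mean signals were corrected for the median local background by normexp (offset 50) and normalized by loess within arrays, with Aquantile for channel values (limma 3.58.1, R 4.3.3). Control and outlier spots (0.482% of spots) were left out, and spots of a probe averaged. A gene was represented by its expressed probe with the highest mean signal. Median Cy5 signals were 54.8 to 81.3 over a background of 32 to 37, without saturated spots, and the number of arrays limits the precision.

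Variances of log2 Cy5 and Cy3 were compared by the Pitman-Morgan test and slides by limma's F test, with Benjamini-Hochberg adjustment over all probes at a threshold of 0.05. Probes entered the first test when both dyes were well above background on at least 5 arrays. Pairs were tested by permutation (Python 3.11.15, scipy 1.17.1). The methods were tested on simulated data, which held no separate cluster of mice. Mice were called clusters where a gap of at least 0.4 of the range, with 3 or more mice on each side, parted them.

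Values in each mouse are given for the 4 *Timp* genes, the 10 members with the largest SD among those above background in both dyes on all arrays, and the expressed members of the pairs. Members, lists and pairs were chosen with earlier results of these data known. The cell type lists, 8 to 12 genes each, also covered neutrophils, mast cells, lymphocytes, fibroblasts, endothelium and mesothelium. Gene names are those of the array, and all 46 were found in the RefSeq table (GRCm38.p6).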

Additional observations from a re-analysis of the deposited data

Results flagged for a closer look

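In 2 of the 28 expressed member genes (7.14%) a single mouse stood far from the other 9, by the share of the whole range that its gap to the nearest other mouse took up (Dixon's ratio, critical value 0.466 for 10 samples). Chance alone gives about 1 in 20, and 5.18% of all 27718 expressed probes were marked in the same way, so the number of member genes is near that of all probes. For *Mmp7* the gap of mouse 2 was 0.912 of the range (2.50 on the log2 scale, against -3.06 to -2.57 in the others). For *Mmp17*, a membrane-bound MMP, the gap of mouse 2 was 0.475 (0.33 against -0.13 to 0.11). Both therefore mark the same mouse, but the *Mmp17* difference is small, and its probe did not vary more in Cy5 than in Cy3. Mouse 2 also stood apart over all 27718 probes. The second principal component held 8.81% of the variance and put mouse 2 at -0.93 and the others between -0.01 and 0.21.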

How the results depend on the processing

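No paired analysis was possible because there was 1 group. The numbers of member probes and of pathway genes that varied more in Cy5 than in Cy3 were 26 and 25, and fell to 16 and 12 without normalization between arrays. Under the other settings the member count lay between 21 of 34 (slide as a block) and 28 of 65 (no filter on dim probes, with 1 that varied less), with 23 of 28 under the strict filter. The pathway count was 17 with median centring, 19 with the slide as a block and 24 or 25 otherwise. Leaving out each mouse gave 24 to 27 and, for the pathway list, 23 to 27. Leaving out mice here, the pairs without a gap, the settings for the pathway list and for the order of mice were chosen after seeing the data. Mice 4 to 7 were lowest in 4 member genes with the deposited values instead of 7 (lost were *Adamts1*, *Adamts8* and *Mmp15*, and *Mmp27* among the highest). The 2 pairs past the threshold by r were 2 over the 10 pairs without a gap in the 6 mice, and became 1 with median centring. The count was 0 with the scanner log ratio, without background subtraction, with the mean over probes and with the filter on all 10 arrays (12 pairs). It was 3 with the deposited values (*Mmp14* with *Mmp2*, *Mmp3* with *Timp1*, *Timp4* with the adipocyte genes). When a mouse was left out it was 0 to 5 (5 without mouse 1, with *Mmp3* and *Mmp12* against *Timp1* and *Timp4* against the adipocyte genes). The counts of 3 and 5 include *Mmp3* with *Timp1* and *Timp4* with the adipocyte genes, which are among the pairs said above to be untestable. Without the 2 farthest mice the count was 0, but with permutations of 4 mice a single pair could not pass. The sign of r turned for *Mmp14* with *Timp2* (-0.0785), *Adamts1* with *Adamts4* (-0.11) and *Adamts4* with *Adamts5* (-0.12) with the deposited values, for *Adamts1* with *Adamts4* (-0.10) and *Timp3* with the endothelial genes (-0.96) without the 2 farthest mice, and for *Adamts1* with *Adamts4* without mouse 2 (-0.30) or mouse 9 (-0.15), its range over single mice left out being -0.30 to 0.34. The SD of *Timp2* was 0.465 with median centring, 0.355 with the deposited values and 0.406 with the mean over probes, that of *Adamts2* was 0.294 with median centring, and that of *Mmp7* 0.149 without mouse 2. A fit of the pairs with the slide as a block was not run, since no pair was tested over all 10 mice. The causes were not tested.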
